A study of Mus musculus with 12 samples.

Results

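The genes described here are 36 components of homologous recombination and of the Fanconi anaemia pathway, 2 connected systems that mend broken and crosslinked DNA. They were taken by gene symbol from a table of 31719 distinct symbols, and each of the 36 had its own entry. RNA was sequenced in bulk from RAW264.7 cells, a macrophage-like line grown from a mouse tumour that was induced with Abelson leukaemia virus. All 12 libraries are labelled wild type and come from this single line. The 4 groups of 3 libraries were untreated cells (UT), cells given an anti-CD36 antibody at a dilution of 1 in 100 (Anti), cells given LPS at 50 ng/ml (LPS), and cells given both (LPS_Anti). LPS is a bacterial cell wall lipid sensed through the receptor TLR4, and CD36 is a scavenger receptor for oxidised lipoproteins and fatty acids. Neither the length of treatment nor a group with a control antibody appears in the labels used here. The labels do not tell whether replicates are separate cultures, so a p-value here covers variation among these samples only, which may be technical.

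Homologous recombination rebuilds a broken chromosome from its sister copy. The kinases ATM and ATR signal the damage, the MRE11-RAD50-NBN complex with CtIP and EXO1 trims the ends, the BRCA proteins prepare the bared strand for pairing with the sister copy, and BLM with its partners separates the joined molecules afterwards. The Fanconi core complex, with the ubiquitin-conjugating enzyme UBE2T, marks the FANCD2-FANCI pair at a crosslink, which opens the way to the same recombination steps. Since a sister copy exists only after DNA synthesis, these genes are best known from dividing cells, in which many of them are transcribed most in S and G2 phase.

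Most of this machinery was lower with LPS, and little of it was called with the antibody. Of the 35 genes that could be tested, 26 were lower with LPS than in untreated cells and 0 were higher. Over all 10276 genes tested, 49.8% passed in either direction, 33.1% lower and 16.6% higher. Fancc and Fancm reached 1 FPKM, the level needed for testing, almost only without LPS, so they were tested only because of those libraries. They add no support to the count, and without them 24 of 33 genes were lower. The median difference of the 35 genes was −0.54 on the log2(FPKM + 1) scale, against −0.14 for all genes. Anti-CD36 alone gave 0 calls among the 35 genes, where 0.341% of all genes were called. Anti-CD36 added to LPS gave 1, a lower level of the kinase gene Atm, where 15.5% of all genes were called. That count became 7, 6 higher and 1 lower, once the trends of GC content and gene length were removed. In that fit 24.1% of all genes were called, 11.7% higher and 12.4% lower. A gene was called where its limma p-value, adjusted over all genes tested, was under 0.05. In bulk RNA, fewer cells carrying a transcript and less of it per cell cannot be told apart.

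The libraries held between 30070450 and 54137810 counting units, and the smallest value of any of the 36 genes stood for 35 of them. Of 10 macrophage markers, 9 reached 1 FPKM, while Mertk did not, and their summed level was 4150 to 7480 FPKM. The summed T cell markers reached at most 0.0368 FPKM in any library, B cell markers 1.13 and fibroblast markers 0.165, and all 4 epithelial markers were at 0. Within groups, untreated replicate 3 and LPS replicate 3 stood high for these genes, with 31 of 35 above the group mean in each and median deviations of 0.24 and 0.22 (log2). LPS replicate 1 stood low, at −0.23. Across 10100 genes the deviation of a library from its group mean went with GC content, with Spearman correlations of −0.56 for untreated replicate 3, −0.64 for LPS replicate 3 and 0.65 for LPS replicate 1. The 36 genes have a median GC content of 45.8% and a median exon length of 5763 bases, against 49.4% and 4300 bases for the genes tested. The plot of library shifts sets the 2 measures side by side.

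**Figure D1:**
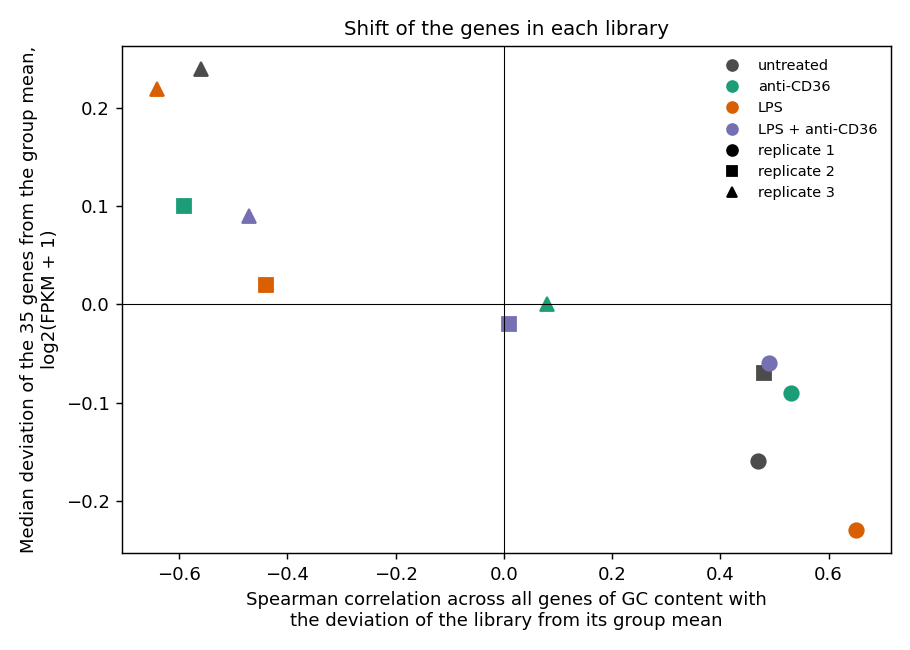
Each point is 1 library. The x axis gives the Spearman correlation, across 10100 genes, between GC content and the deviation of the library from its group mean, and the y axis the median deviation of the 35 tested repair genes in log2(FPKM + 1). Libraries with negative correlations (untreated replicate 3 at −0.56, LPS replicate 3 at −0.64) lie at positive deviations, and LPS replicate 1 (0.65) lies lowest at −0.23.

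Many genes of DNA synthesis and repair are targets of E2F transcription factors, and genes of late cell cycle often carry a CHR element, so the promoters of the members were searched for both. RefSeq windows on GRCm38.p6, from 250 bases before to 50 bases after the start, were matched for 27 of the 36 genes. The windows were not matched for Rbbp8, Exo1, Rad50, Xrcc2, Rad54b, Rmi2, Rad51d, Fancd2 and Nbn. One of the E2F strings TTTGGCGC, TTTCCCGC, TTTCGCGC or TTTGCCGC, on either strand, was present in 6 of the 27 genes (22.2%) and in 2.6% of all 27025 genes with a window. In the bases before the start it was present in 4 of 27 (14.8%), against 2.2% of all genes. All 4 genes were lower with LPS, as were 26 of the 35 tested genes of the set. In all 4 the string was TTTCCCGC. The stretches of 100 bases that hold it are shown 5′ to 3′ on the strand of the gene, with the match in capitals:
Bard1 (chr1:71103123-71103222, minus strand): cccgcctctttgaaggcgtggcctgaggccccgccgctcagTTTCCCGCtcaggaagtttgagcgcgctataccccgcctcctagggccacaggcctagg
Fancg (chr4:43010302-43010401, minus strand): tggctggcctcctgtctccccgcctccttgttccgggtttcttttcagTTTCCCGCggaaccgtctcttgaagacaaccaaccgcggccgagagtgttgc
Chek2 (chr5:110839785-110839884, plus strand): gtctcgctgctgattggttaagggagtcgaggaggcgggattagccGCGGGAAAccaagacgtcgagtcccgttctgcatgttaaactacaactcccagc
Brca2 (chr5:150522407-150522506, plus strand): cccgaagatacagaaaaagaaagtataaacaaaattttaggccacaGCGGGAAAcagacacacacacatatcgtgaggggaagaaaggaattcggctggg
The match lies on the strand of the gene in Bard1 and Fancg and on the opposite strand in Chek2 and Brca2. It ends 45 bases before the start in Fancg, 145 in Chek2, 161 in Brca2 and 202 in Bard1. These are the starts of the RefSeq windows. In GENCODE M21 (GRCm38) Fancg begins farther upstream, at chr4:43010506, so its match lies after that start. Rad51c, which was not called with LPS, and Rmi1, which was lower, have a match that lies across or after a start. The CHR strings TTTGAA or TTTAAA, on either strand, were present in Bard1, Rad52 and Fancf, 3 of 27 genes (11.1%), against 30.6% of all genes. The shares of all genes cover every gene with a window, whether or not it was expressed here. A match is a string of letters and not a measured binding site.

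Of the damage kinases, the 2 checkpoint effectors fell with LPS and the 2 apical kinases were not called. Chek1, the effector kinase of the replication checkpoint downstream of ATR, stood at 8.88, 9.31 and 12.2 FPKM in the untreated libraries and at 3.42, 4.42 and 5.69 FPKM with LPS. Chek2, the effector kinase downstream of ATM, stood at 8.25, 10.4 and 12.8 FPKM and at 4.4, 5.09 and 5.54 FPKM. In both genes every LPS library lay below every untreated one. The log2 difference was −1.02 ± 0.15 (SE) for Chek1 (limma adjusted p 0.00017) and −0.92 ± 0.15 for Chek2 (limma adjusted p 0.000389). Atm, the kinase that answers double-strand breaks, spanned 6.31 to 9.62 FPKM untreated and 4.15 to 8.75 FPKM with LPS, so that the groups overlapped. Its difference was −0.21 ± 0.2 (limma adjusted p 0.428). Atr, the kinase that answers single-stranded DNA at stalled forks, was at 2.39, 2.62 and 4.0 FPKM and at 1.6, 2.39 and 3.03 FPKM, a difference of −0.26 ± 0.17 (limma adjusted p 0.225).

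**Figure D2:**
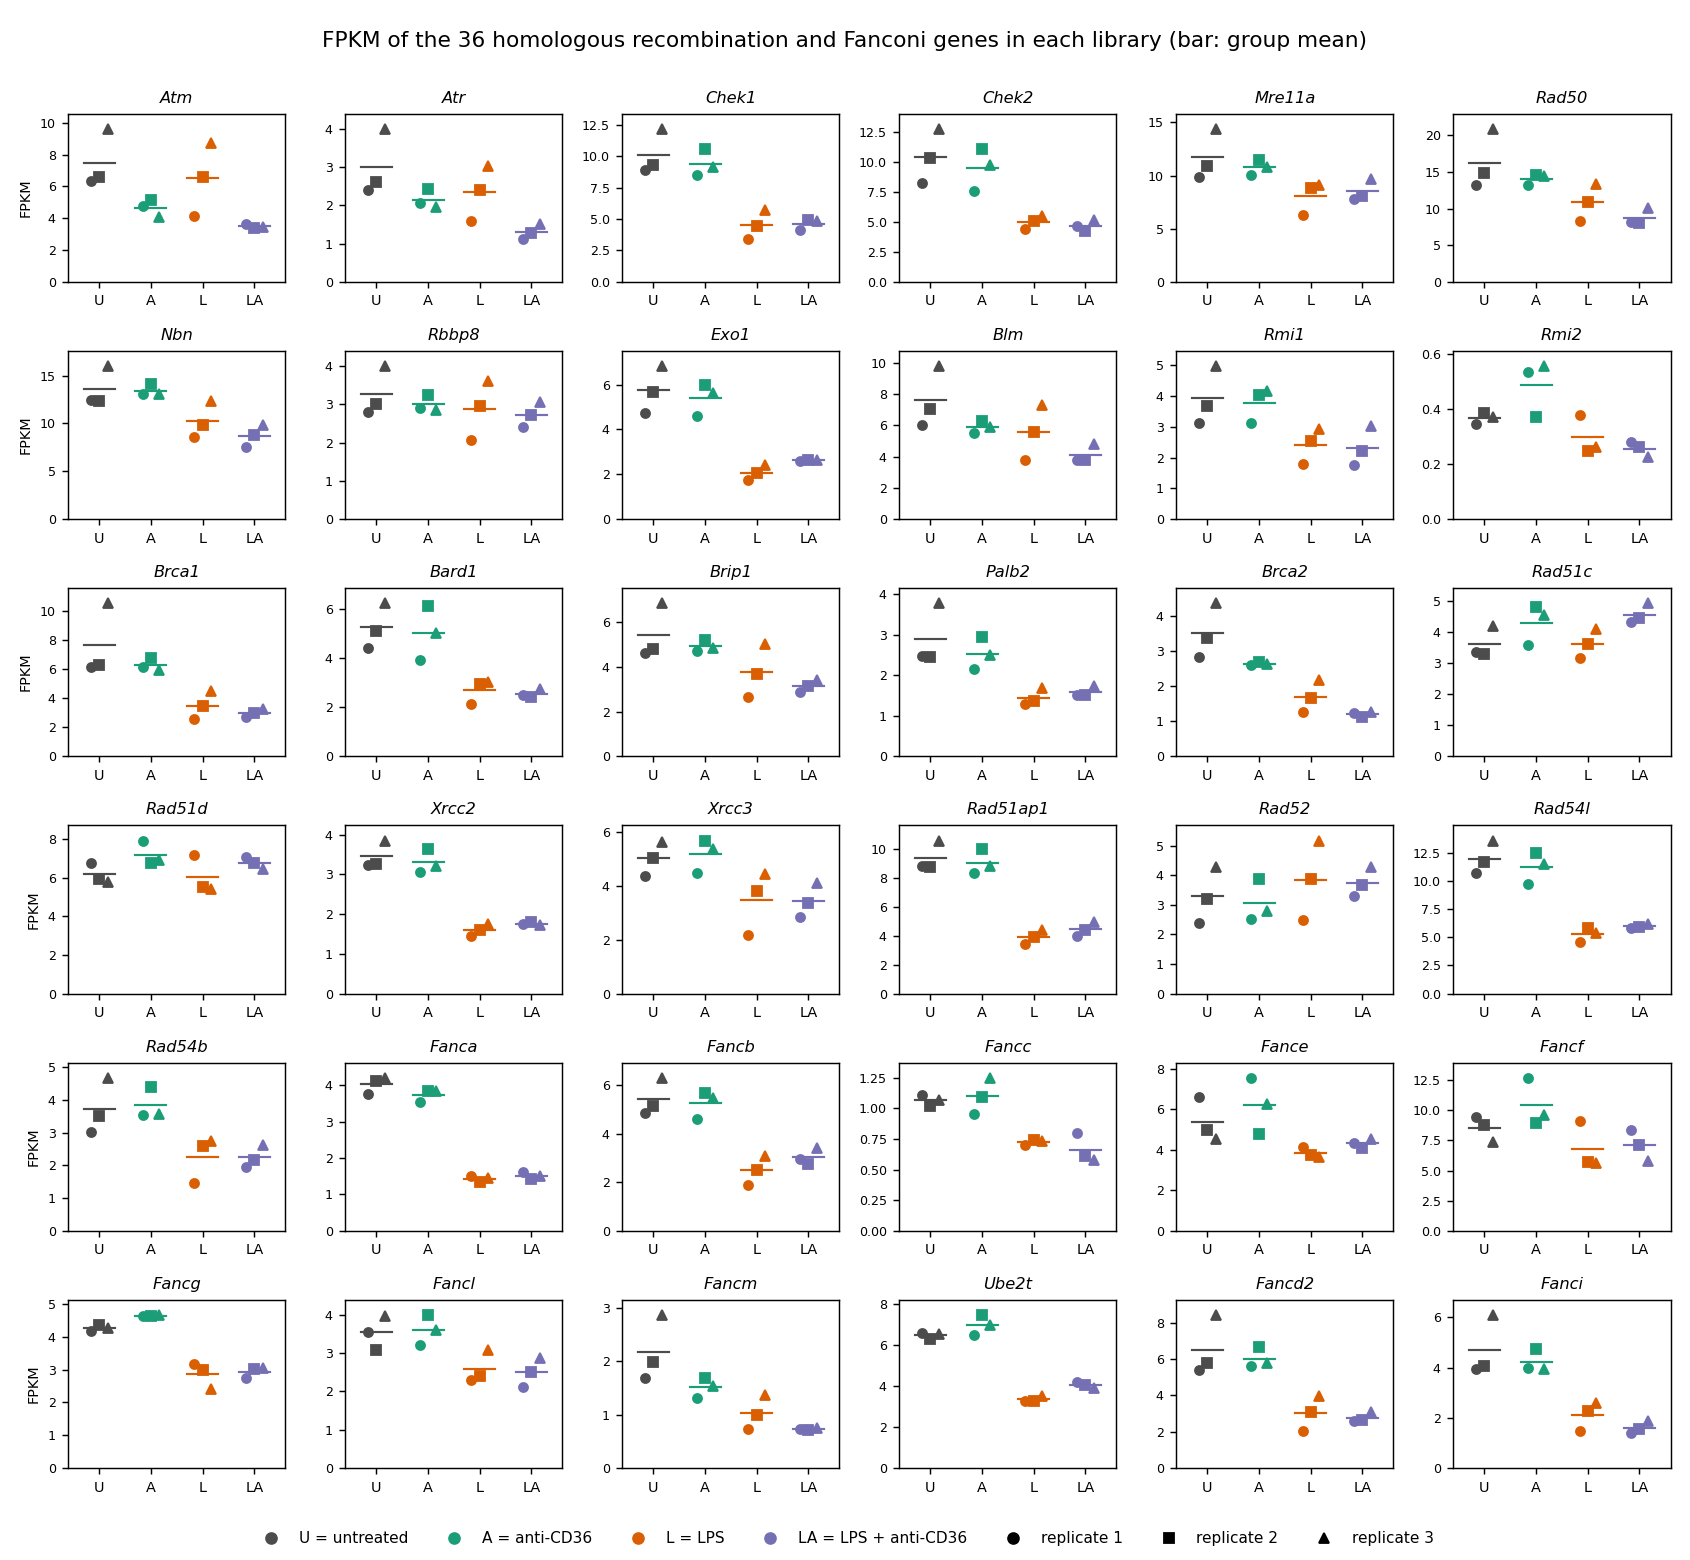
Each panel is 1 of the 36 genes. The y axis gives FPKM from 0, the x axis the 4 groups of 3 libraries, the marker shape the replicate number and the bar the group mean. In Fanca the 3 LPS libraries lie at 1.33 to 1.5 FPKM, below the 3.75 to 4.2 FPKM of the untreated libraries, while in Rad51c the 2 groups overlap.

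End resection was lower in 4 of its 5 genes. Exo1, the long-range exonuclease, lies at chr1:175880581-175913489 on the plus strand (GENCODE M21, GRCm38) and showed the largest difference of the 35 genes on the log2(FPKM + 1) scale. It stood at 4.75, 5.69 and 6.83 FPKM in untreated cells and at 1.73, 2.05 and 2.4 FPKM with LPS. Its LPS mean of 2.06 ± 0.337 FPKM (SD, n = 3) was 35.8% of the untreated mean of 5.75 ± 1.04 FPKM, beside 35.6% for Fanca, and the log2 difference was −1.14 ± 0.12 (SE, limma adjusted p 1.26e-05). The 3 genes of the MRE11-RAD50-NBN complex, which tethers ends and starts the trimming, were among the most abundant of the set and fell less. Rad50 stood at 13.2, 14.8 and 20.9 FPKM and at 8.37, 10.9 and 13.3 FPKM, Mre11a at 9.84, 10.9 and 14.4 FPKM and at 6.25, 8.85 and 9.14 FPKM. Nbn stood at 12.5, 12.3 and 16.0 FPKM and at 8.61, 9.8 and 12.3 FPKM. The highest LPS library reached or passed the lowest untreated one in Rad50 and Nbn, but not in Mre11a. Their differences were −0.54, −0.49 and −0.38 for Rad50, Mre11a and Nbn, with limma adjusted p-values of 0.0222, 0.0186 and 0.0356. All 3 calls were lost without untreated replicate 3 (limma adjusted p 0.0679 to 0.126) and without LPS replicate 1 (limma adjusted p 0.0598 to 0.112), and that of Nbn also without LPS replicate 2 or LPS_Anti replicate 2. Rbbp8, which encodes CtIP, the partner that starts resection, was at 2.81 to 4.0 FPKM untreated and 2.07 to 3.61 FPKM with LPS (difference −0.15 ± 0.15, limma adjusted p 0.427).

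In the BLM complex, which dissolves the crossed intermediates of recombination, 1 of 2 tested genes was lower. Rmi1, a scaffold subunit, stood at 3.13, 3.67 and 4.98 FPKM in untreated cells and at 1.78, 2.54 and 2.92 FPKM with LPS, with no overlap. Its difference was −0.53 ± 0.18 (limma adjusted p 0.0287), and the call was lost without untreated replicate 2 or 3 and without LPS replicate 1 or 2 (limma adjusted p 0.0519 to 0.103). Blm, the helicase itself, was at 6.03, 7.02 and 9.8 FPKM and at 3.78, 5.59 and 7.29 FPKM, a difference of −0.41 ± 0.19 (limma adjusted p 0.101). Rmi2, the small subunit, was the lowest of the 36 genes, at 0.224 to 0.555 FPKM over the 12 libraries. It was the only member under the filter of 1 FPKM in 3 libraries and was not tested.

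All 5 genes of the BRCA mediators were lower with LPS. Brca1, whose product promotes resection and the later steps, stood at 6.1, 6.3 and 10.5 FPKM in the untreated libraries and at 2.54, 3.42 and 4.47 FPKM with LPS. Its obligate partner Bard1 stood at 4.41, 5.14 and 6.25 FPKM and at 2.14, 2.96 and 3.02 FPKM. Brca2, the central mediator of strand invasion, stood at 2.82, 3.37 and 4.36 FPKM and at 1.25, 1.65 and 2.17 FPKM. In these 3 genes no LPS library reached an untreated one, although untreated replicate 3 stood well above its group in Brca1. The differences were −0.93 ± 0.19 for Brca1, −0.76 ± 0.15 for Bard1 and −0.75 ± 0.13 for Brca2, with limma adjusted p-values of 0.00135, 0.00119 and 0.000641. Palb2, the bridge between BRCA1 and BRCA2, stood at 2.48, 2.45 and 3.78 FPKM and at 1.29, 1.37 and 1.69 FPKM, a difference of −0.66 ± 0.13 (limma adjusted p 0.00132). Brip1, a helicase bound by BRCA1, stood at 4.64, 4.79 and 6.85 FPKM and at 2.65, 3.7 and 5.01 FPKM. Its groups overlapped, and its difference of −0.44 ± 0.17 was close to the threshold (limma adjusted p 0.0472). Leaving out any library other than untreated replicate 1 or LPS replicate 3 ended the Brip1 call (limma adjusted p 0.0562 to 0.167).

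Of Xrcc2, Xrcc3, Rad51c and Rad51d, subunits of complexes that assist strand invasion, 1 was called lower with LPS and 3 were not called. The gene called was Xrcc2, at 3.24, 3.26 and 3.85 FPKM untreated and at 1.45, 1.59 and 1.74 FPKM with LPS. Its difference was −0.78 ± 0.08 (limma adjusted p 1e-05). Rad51c was at 3.35, 3.28 and 4.17 FPKM and at 3.15, 3.6 and 4.1 FPKM, nearly the same range (difference 0.01 ± 0.11, limma adjusted p 0.972). Rad51d was at 6.77, 5.95 and 5.78 FPKM and at 7.15, 5.54 and 5.4 FPKM, again with overlapping groups (difference −0.03 ± 0.1, limma adjusted p 0.813). Xrcc3 lay between these, at 4.37, 5.02 and 5.63 FPKM and at 2.18, 3.8 and 4.42 FPKM, and missed the threshold (difference −0.46 ± 0.18, limma adjusted p 0.0524). Whether the LPS difference itself varied between these 4 genes was not tested.

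Of the strand exchange helpers, 3 of 4 fell. Rad51ap1, which stimulates the joining of DNA strands, stood at 8.84, 8.75 and 10.6 FPKM in untreated cells and at 3.43, 3.91 and 4.39 FPKM with LPS, 41.7% of the untreated mean. Rad54l, the motor protein that drives strand exchange, stood at 10.7, 11.7 and 13.6 FPKM and at 4.6, 5.81 and 5.38 FPKM, 43.9% of the untreated mean. The differences were −1.08 ± 0.11 for Rad51ap1 and −1.05 ± 0.11 for Rad54l, with limma adjusted p-values of 6.04e-06 and 9.23e-06. Rad54b, a relative of Rad54l, stood at 3.03, 3.51 and 4.68 FPKM and at 1.47, 2.58 and 2.75 FPKM (difference −0.55 ± 0.17, limma adjusted p 0.0178). That call was lost without untreated replicate 3 or LPS replicate 1 (limma adjusted p 0.0655 and 0.0537). Rad54b shares 35.8% of its exon bases with Fsbp on the same strand, so its reads may in part be those of Fsbp. Rad52, a mediator with a minor role in mammals, was the member with the most positive difference, 0.16 ± 0.21 (limma adjusted p 0.559). Its untreated libraries were at 2.4, 3.2 and 4.28 FPKM and its LPS libraries at 2.5, 3.87 and 5.18 FPKM.

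In the Fanconi core complex with UBE2T, 8 of 9 genes were lower, and 6 of 7 without Fancc and Fancm. Fanca, a core subunit at chr8:123268300-123318576 on the minus strand (GENCODE M21, GRCm38), combined a large fall with a small spread. It stood at 3.75, 4.12 and 4.2 FPKM in untreated cells and at 1.5, 1.33 and 1.46 FPKM with LPS. The LPS mean of 1.43 ± 0.0878 FPKM (SD, n = 3) was 35.6% of the untreated mean of 4.02 ± 0.239 FPKM (difference −1.05 ± 0.07 SE, limma adjusted p 2.35e-07). Fancb, a subunit of the catalytic module and X-linked, stood at 4.86, 5.12 and 6.29 FPKM and at 1.89, 2.52 and 3.07 FPKM (difference −0.89 ± 0.13, limma adjusted p 0.000153). Fancl, the ubiquitin ligase of the complex, stood at 3.55, 3.09 and 3.97 FPKM and at 2.3, 2.4 and 3.07 FPKM (difference −0.34 ± 0.12, limma adjusted p 0.0304). Ube2t, which carries the ubiquitin for FANCL, stood at 6.58, 6.28 and 6.52 FPKM and at 3.28, 3.28 and 3.52 FPKM, and its difference of −0.78 ± 0.07 was called at a limma adjusted p of 2.17e-06. On the log2(FPKM + 1) scale the difference was larger for the enzyme than for the ligase, a contrast that was not tested. Fancg, which holds FANCA in the complex, stood at 4.16, 4.37 and 4.26 FPKM and at 3.18, 2.98 and 2.42 FPKM, a difference of −0.45 ± 0.08 (limma adjusted p 0.000634). Fancm, the DNA-binding translocase, stood at 1.68, 1.99 and 2.86 FPKM and at 0.729, 0.991 and 1.37 FPKM, a difference of −0.64 ± 0.14 (limma adjusted p 0.0024). Fance, which contacts FANCD2, stood at 6.59, 4.99 and 4.53 FPKM and at 4.14, 3.73 and 3.64 FPKM, with untreated replicate 1 the highest. Its difference was −0.39 ± 0.14 (limma adjusted p 0.041). Fancc, the subunit of lowest level, had means of 1.07 FPKM untreated and 0.726 FPKM with LPS (difference −0.26 ± 0.08, limma adjusted p 0.0182). Fancc reached 1 FPKM in 5 of the 6 libraries without LPS and in 0 with it, and Fancm in 6 and in 1. Both were therefore tested only because of the groups in which they are high, and their calls add no support to the counts. Fancf, an adaptor subunit, was at 9.41, 8.77 and 7.34 FPKM and at 9.15, 5.7 and 5.6 FPKM, with LPS replicate 1 inside the untreated range (difference −0.31 ± 0.18, limma adjusted p 0.194). The call of Fancc was lost without untreated replicate 1 (limma adjusted p 0.0516), that of Fancl without untreated replicate 1 or 3 or LPS replicate 1 or 2 (0.0667 to 0.0986), and that of Fance without any of 8 libraries (0.0534 to 0.161). The libraries that kept the Fance call when left out were untreated replicate 3, anti-CD36 replicates 1 and 2 and LPS replicate 1.

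Both genes of the FANCD2-FANCI clamp, the substrate that the core complex marks, fell with LPS. Fancd2 stood at 5.38, 5.79 and 8.43 FPKM in untreated cells and at 2.03, 3.09 and 3.96 FPKM with LPS. Fanci stood at 3.93, 4.07 and 6.09 FPKM and at 1.48, 2.26 and 2.59 FPKM. Every LPS library was below every untreated one in both, and replicate 3 was the highest of each group. The differences were −0.91 ± 0.18 for Fancd2 and −0.87 ± 0.16 for Fanci, with limma adjusted p-values of 0.00116 and 0.00078.

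Over the 35 genes, 23 had all 3 LPS libraries below all 3 untreated ones, and 32.9% of all genes tested did, with 16.7% the other way round. Fancc and Fancm, tested only because of the libraries without LPS, are among the 23. Genes called lower under every alternative in which they were tested numbered 17: Chek1, Chek2, Exo1, Brca1, Bard1, Palb2, Brca2, Xrcc2, Rad51ap1, Rad54l, Fanca, Fancb, Fancg, Fancm, Ube2t, Fancd2 and Fanci. The matching count over all genes was not computed, so this stability is not shown to be particular to these genes. The place of Fancm among the 17 adds no support, because of the same filter. The count of 26 was 19 without untreated replicate 3, where 3332 of all 10276 genes were lower. It was 18 under median-of-ratios scaling, where 2245 of all genes were lower and which moves the median of all genes from −0.14 to −0.01. That scaling also raises the share of higher calls over all genes from 33.4% to 50.7% of the calls, and 0 of the 35 genes were higher under it. Over 10100 genes the LPS difference had Spearman correlations of −0.07 with GC content and 0.05 with exon length. With both trends removed, 30 of the 35 genes were lower, where 61.6% of all genes were called, 41.1% lower and 20.5% higher, and Atr, Rbbp8, Blm and Fancf were among them.

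In cells that also had the antibody, 25 of the 26 genes (96.2%) were again lower with LPS, 89.3% of the 28 called there. The matching share over all genes was not computed, so the repeat is not shown to be particular to these genes. LPS_Anti libraries were lower than Anti libraries in 28 of 35 genes and higher in 0, with a median difference of −0.53, and in 26 of 33 without Fancc and Fancm. Over all genes 47.5% passed, 31.3% lower, and the median was −0.12. In 31 of the 35 genes all LPS_Anti libraries lay below all Anti libraries, which held for 42.3% of all genes tested, with 21.6% the other way round. Fancc and Fancm are among the 31. Exo1 stood at 4.61, 5.97 and 5.61 FPKM with the antibody and at 2.61, 2.64 and 2.65 FPKM with both agents. Its difference of −0.81 ± 0.12 compares with −1.14 ± 0.12 without the antibody. Fanci had the largest fall here, from 3.99, 4.73 and 3.95 FPKM to 1.41, 1.54 and 1.88 FPKM (difference −1.0 ± 0.16, limma adjusted p 0.000296). Fanca followed, from 3.53, 3.84 and 3.85 FPKM to 1.62, 1.43 and 1.5 FPKM (difference −0.91 ± 0.07, limma adjusted p 7.55e-07).

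Atr, Xrcc3 and Fancf passed with the antibody present and not without it, each close to the threshold. Atr went from 2.06, 2.42 and 1.95 FPKM to 1.13, 1.28 and 1.51 FPKM (difference −0.45 ± 0.17, limma adjusted p 0.0472). Xrcc3 went from 4.47, 5.67 and 5.37 FPKM to 2.85, 3.37 and 4.1 FPKM (limma adjusted p 0.0449), and Fancf from 12.7, 8.93 and 9.65 FPKM to 8.37, 7.12 and 5.76 FPKM (limma adjusted p 0.0438). These calls were each lost in 5 or more of the fits that left out 1 library, Atr without any of 8 libraries (limma adjusted p 0.0572 to 0.137). Their differences between the 2 settings, −0.19 for Atr, −0.02 for Xrcc3 and −0.19 for Fancf, were not called by the interaction test (limma adjusted p 1.0 for each). The calls of Rad54b and Fancl were lost without Anti replicate 2 or LPS_Anti replicate 1, that of Palb2 without Anti replicate 2 or LPS_Anti replicate 2, those of Brip1 and Rmi1 in 4 such fits each and that of Fance in 5 (limma adjusted p up to 0.124). Mre11a, called without the antibody, was not called with it (difference −0.31 ± 0.15, limma adjusted p 0.108). The 19 genes called under every alternative here were 16 of the 17 above, all but Palb2, together with Rad50, Nbn and Fancc. For this comparison too, the matching count over all genes was not computed. Fancc and Fancm add no support here either, as both were tested only because of the libraries without LPS.

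**Figure D3:**
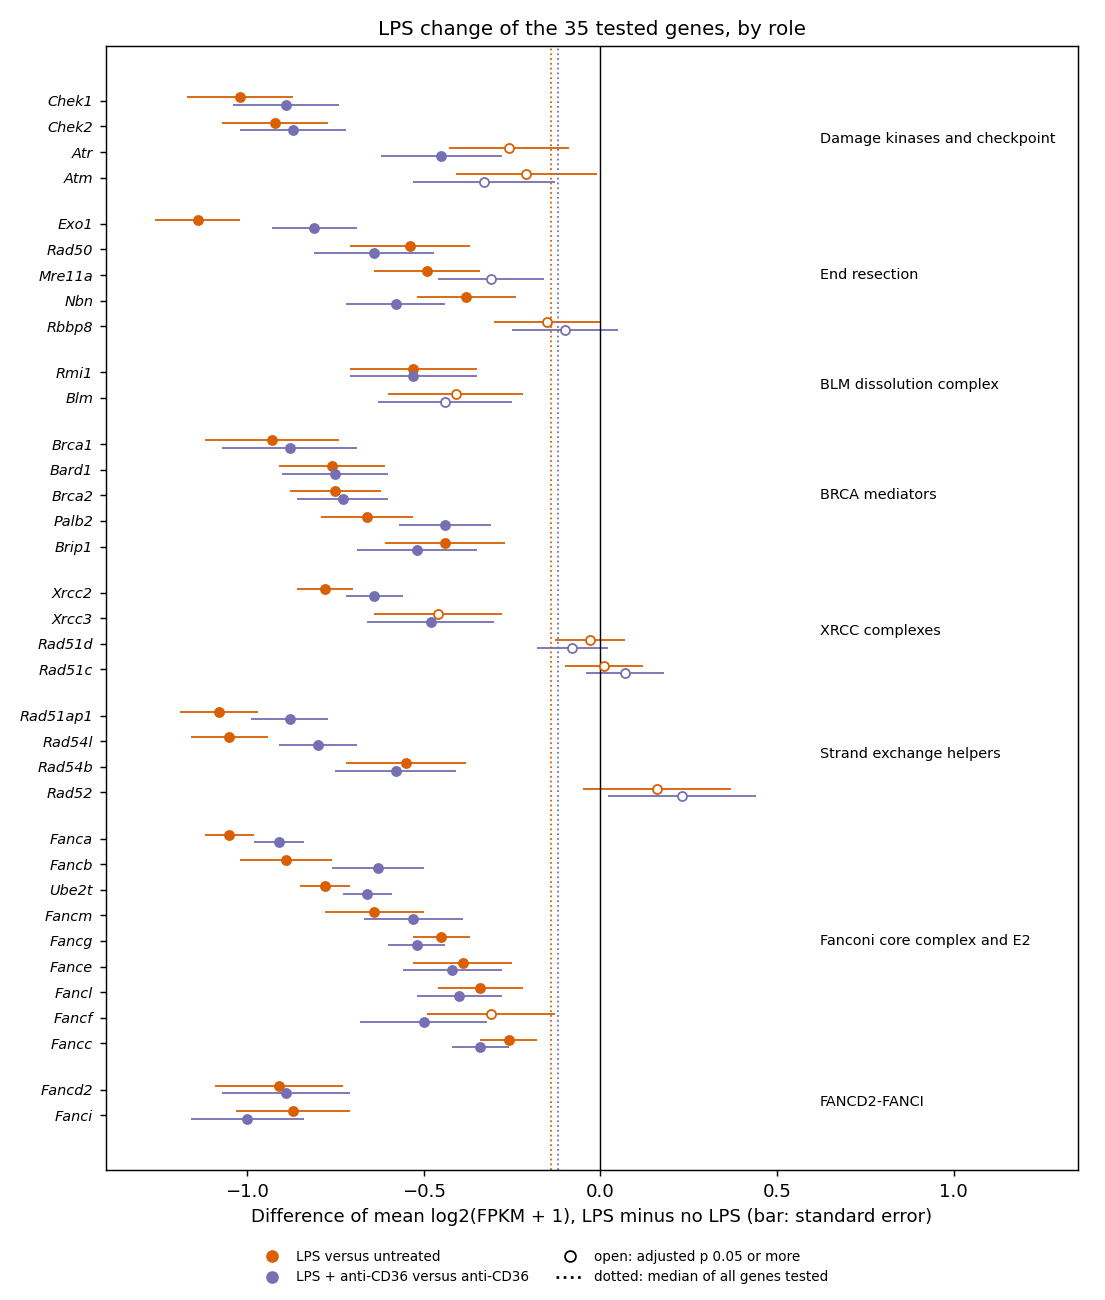
Difference of mean log2(FPKM + 1) between LPS and no LPS for the 35 tested genes, grouped by role, without the antibody (orange) and with it (violet). Bars are standard errors, open points have an adjusted p of 0.05 or more, and dotted lines mark the medians of all genes (−0.14 and −0.12). Exo1 lies farthest left without the antibody (−1.14) and Fanci with it (−1.0), while Rad51c, Rad51d and Rad52 lie near 0 or above.

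The test of whether the LPS difference itself changed with the antibody gave 0 calls among the 35 genes. Over all genes 1.28% were called, 0.496% higher and 0.788% lower. An unadjusted p under 0.05 by limma was reached by 0 of the 35 genes and by 884 of all 10276 (8.6%). The values ran from −0.2 for Nbn to 0.33 for Exo1, with a median of 0.02. Exo1 had a standard error of 0.17 and a limma adjusted p of 0.706. With the trends of GC content and length removed, its value was 0.34 ± 0.09 (limma adjusted p 0.0593). With a replicate block as well it passed, at 0.34 ± 0.08 (limma adjusted p 0.0458), the only 1 of 22 alternatives to call it.

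Anti-CD36 without LPS gave 0 calls of 35, and limma called 0.341% of all genes, 35 of 10276, 0.146% higher and 0.195% lower. An unadjusted p under 0.05 was reached by 3 of the 35 genes and by 1969 of all 10276 (19.2%). The median difference was −0.07, against −0.01 for all genes. Atm had the most negative difference, from 6.31, 6.56 and 9.62 FPKM in untreated cells to 4.75, 5.16 and 4.08 FPKM with the antibody (difference −0.57 ± 0.2, limma adjusted p 0.186). The Atm groups did not overlap, and the same held for lower values of Brca2 and Fancm and for higher values of Fancg, 3 lower and 1 higher of 35. Of all genes tested, 10.5% lay without overlap lower and 12.1% higher. Fancg was at 4.64, 4.62 and 4.66 FPKM with the antibody, above its 4.16 to 4.37 FPKM in untreated cells, a difference of 0.1 ± 0.08 (limma adjusted p 0.465). At the other end of the order stood Fancf, at 12.7, 8.93 and 9.65 FPKM with the antibody and 9.41, 8.77 and 7.34 FPKM without (difference 0.26 ± 0.18, limma adjusted p 0.422).

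The antibody comparisons went with base composition over the whole table. Across 10100 genes the difference of Anti from UT had Spearman correlations of 0.55 with GC content and −0.51 with exon length. The difference of LPS_Anti from LPS had 0.37 and −0.5. These are across genes, which are not independent replicates. Atm (GC content 42.6%, exon length 10338 bases) and Atr (40.8%, 23629 bases) are long genes of low GC content. With both trends removed the antibody difference without LPS was −0.33 ± 0.11 for Atm and 0.03 ± 0.06 for Atr, against −0.57 and −0.33 as deposited. Rad51c then became the only call, at 0.28 ± 0.07 (limma adjusted p 0.0399), where 3.9% of all genes passed, 1.58% higher and 2.32% lower.

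With LPS present, Atm was lower with the antibody, and no other gene of the 35 was called. Of all genes 15.5% passed, 8.14% lower and 7.34% higher. Atm, at chr9:53439149-53536740 on the minus strand (GENCODE M21, GRCm38), stood at 4.15, 6.59 and 8.75 FPKM with LPS and at 3.61, 3.4 and 3.46 FPKM with both agents. Every LPS_Anti library was below every LPS library although the LPS libraries were far apart from each other. The mean went from 6.5 ± 2.3 to 3.49 ± 0.11 FPKM (SD, n = 3), a difference of −0.69 ± 0.2 (SE, limma adjusted p 0.0416). Over the alternatives the adjusted p of Atm ran from 0.00276 to 0.154, and 11 of 23 kept the call. The call was lost without any 1 of 9 libraries, all but untreated replicates 1 and 3 and LPS replicate 1 (limma adjusted p 0.0529 to 0.154). With the trends of GC content and length removed, the difference was −0.42 ± 0.11 (limma adjusted p 0.0172).

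Groups without overlap were seen in 7 of the 35 genes here. Atm, Atr and Brca2 were lower (16.4% of all genes), and Exo1, Rad51c, Rad54l and Ube2t were higher (19.7% of all genes). Atr was at 1.6, 2.39 and 3.03 FPKM with LPS and at 1.13, 1.28 and 1.51 FPKM with both (difference −0.52 ± 0.17, limma adjusted p 0.061). Its difference was −0.02 ± 0.06 once the trends of GC content and length were removed. Ube2t was at 3.28, 3.28 and 3.52 FPKM and at 4.2, 4.02 and 3.91 FPKM, values tight in both groups (difference 0.21 ± 0.07, limma adjusted p 0.0582). Exo1 was at 1.73, 2.05 and 2.4 FPKM and at 2.61, 2.64 and 2.65 FPKM (difference 0.25 ± 0.12, limma adjusted p 0.17). Rad51c was at 3.15, 3.6 and 4.1 FPKM and at 4.31, 4.43 and 4.91 FPKM (difference 0.27 ± 0.11, limma adjusted p 0.125).

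With the 2 trends removed, 7 of the 35 genes were called in this comparison, against 24.1% of all genes, 11.7% higher and 12.4% lower. Exo1 (0.42), Rad51c (0.32), Ube2t (0.3), Rad54l (0.3), Rbbp8 (0.28) and Rad51ap1 (0.21) were higher with the antibody, and Atm was lower. Rbbp8, with an exon length of 12521 bases and a GC content of 42.1%, changed sign, from −0.04 ± 0.15 as deposited to 0.28 ± 0.05. Of these 7, only Atm was called on the deposited values.

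**Figure D4:**
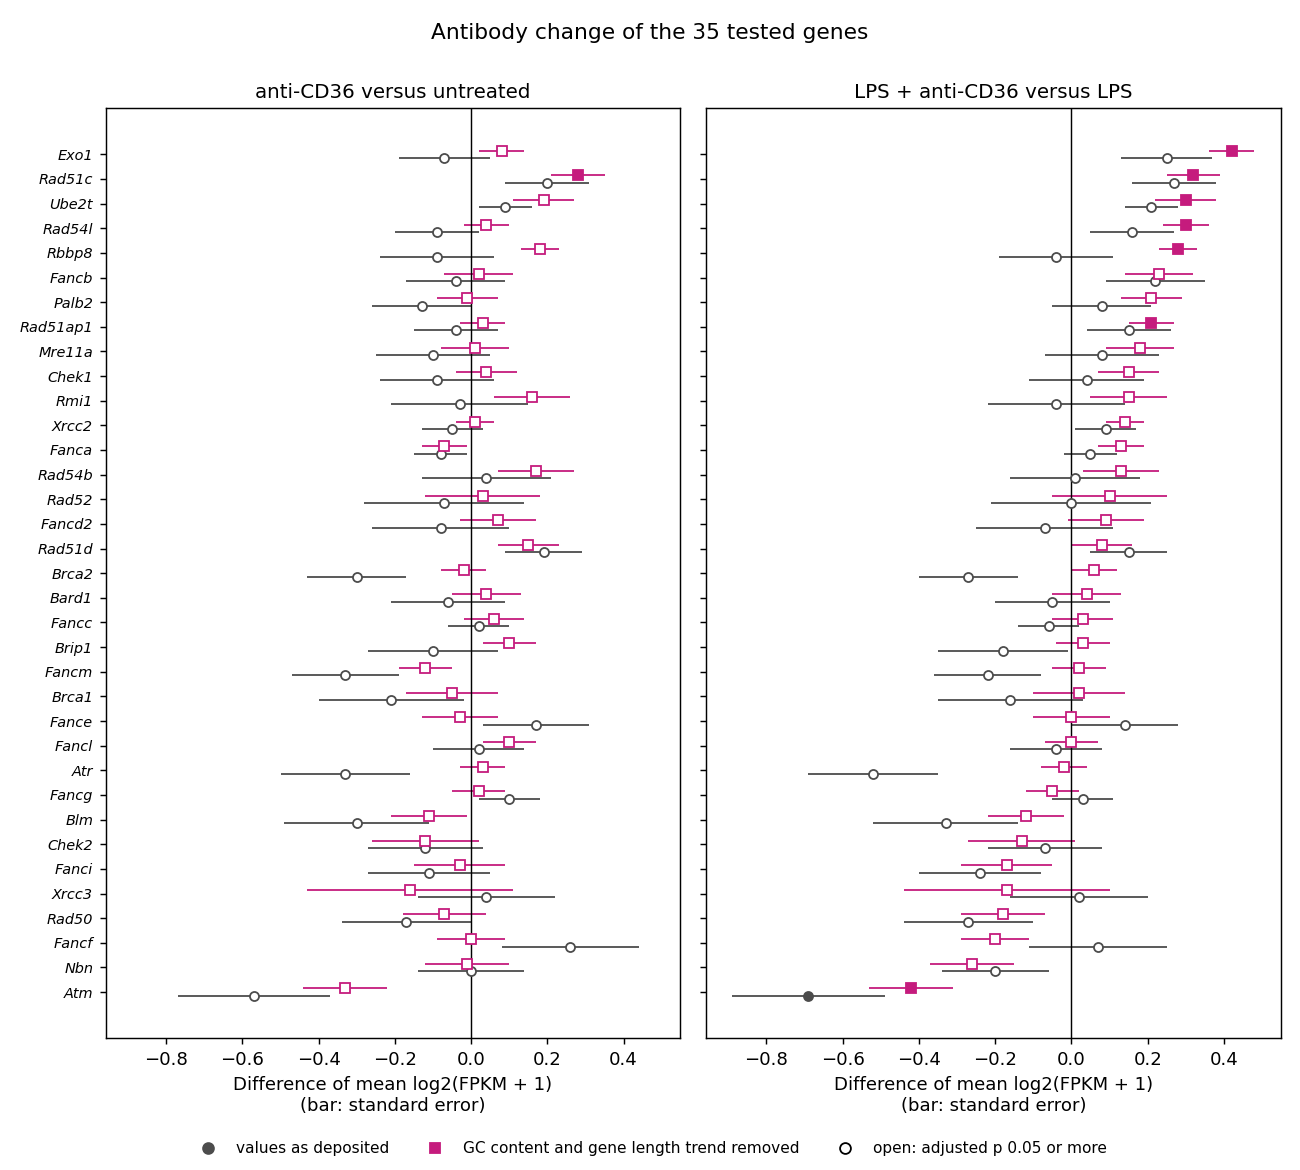
Difference of mean log2(FPKM + 1) between antibody and no antibody, without LPS (left) and with LPS (right), for the 35 tested genes. Grey circles use the deposited values, magenta squares the values with the trend of GC content and gene length removed, bars are standard errors, and open points have an adjusted p of 0.05 or more. Atm lies farthest left in both panels (−0.57 and −0.69), and Atr moves from −0.52 to −0.02 in the right panel.

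Other genes of the same pathways, 47 in a separate list with 46 tested, were also mostly lower or not called with LPS. With LPS 26 were lower and 1 was higher, where 33.1% of all genes were lower and 16.6% higher, with a median difference of −0.4. H2ax, the histone variant phosphorylated at breaks, went from 44.0 ± 7.32 to 10.1 ± 2.92 FPKM (SD, n = 3), a difference of −2.03 that is larger than that of any of the 35 genes. Rpa2, a subunit of the protein that coats single-stranded DNA, differed by −1.28, Clspn, the adaptor that lets ATR activate CHK1, by −1.17, and Fignl1, an ATPase of the recombination pathway, by −1.13. The higher gene was Ercc1, a subunit of the nuclease that unhooks crosslinks, at 3.57 ± 0.57 FPKM untreated and 11.2 ± 1.13 FPKM with LPS (difference 1.43, limma adjusted p 4.97e-07). When the antibody was added to LPS, 7 of the 46 were higher and 0 lower, where 7.34% of all genes were higher and 8.14% lower, among them H2ax (0.72), Ercc1 (0.5) and Rpa2 (0.4). The other 4, Psmc3ip (0.57), Eme1 (0.44), Faap24 (0.42) and Faap100 (0.38), are named because they passed there and were chosen after their values were seen. With the trends of GC content and length removed, Psmc3ip (0.38), Ercc1 (0.35), Faap100 (0.34), Rpa2 (0.28) and Faap24 (0.22) were still called, and Eme1 (0.28, limma adjusted p 0.13) was not. H2ax was not fitted there.

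The other lists differ in size, and over all genes tested 33.1% were lower with LPS and 16.6% higher. Lists of the other repair pathways gave smaller counts, and lists of cell division gave larger ones. With LPS, non-homologous end joining, the repair of breaks without a template, had 4 lower and 1 higher of 13 genes and a median of 0.02. Nucleotide excision repair had 3 lower and 1 higher of 18 and a median of −0.12, and mismatch repair had 2 lower of 7 and a median of −0.3. For end joining, nucleotide excision and mismatch repair the share lower was no larger than that of all genes. Base excision repair had 8 lower and 1 higher of 16 and a median of −0.26. DNA replication genes were lower in 34 of 35 with a median of −0.97, and mitosis genes in 34 of 34 with a median of −1.66. The 35 recombination and Fanconi genes, with 26 lower and a median of −0.54, lay between the excision repair lists and the replication list. No test compared the lists with each other, and the part of cell division in the members' fall was not tested.

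**Figure D5:**
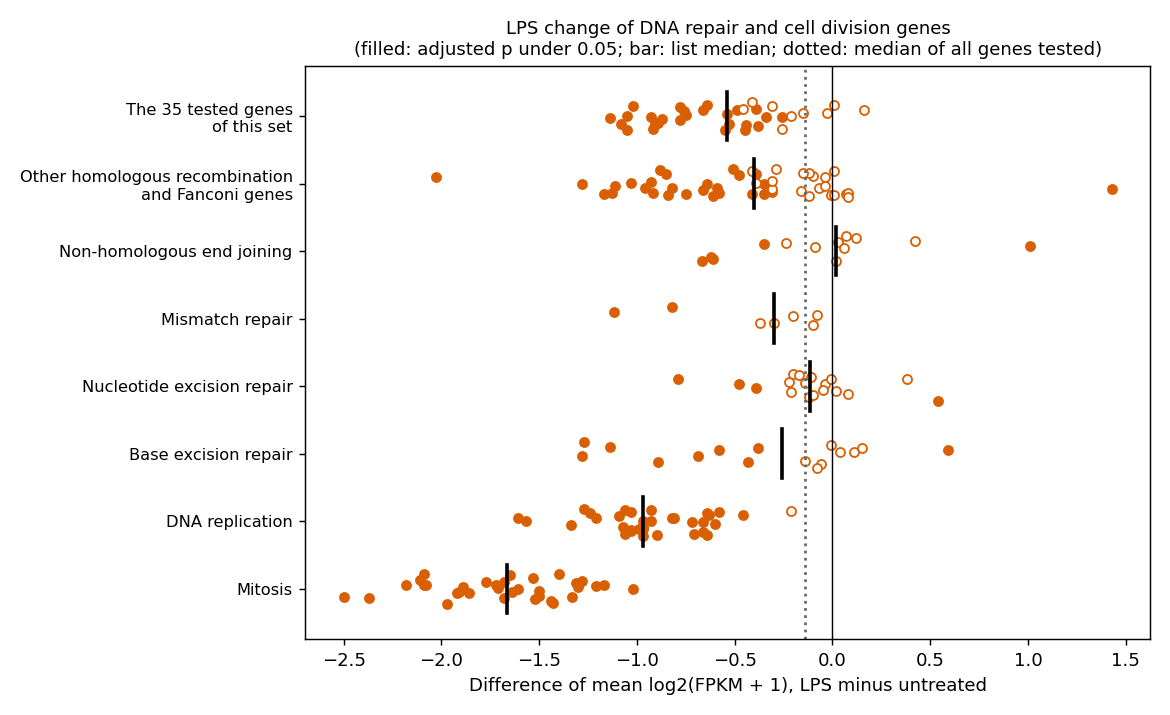
Each point is 1 gene, and the x axis gives its difference of mean log2(FPKM + 1) between LPS and untreated cells. Filled points have an adjusted p under 0.05, the black bar is the median of the list and the dotted line the median of all genes tested (−0.14). The medians run from 0.02 for non-homologous end joining through −0.54 for the 35 genes described here to −1.66 for mitosis.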

How the data were processed

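Expression was deposited as 1 table of FPKM values (counts scaled by gene length and library depth), which the authors computed for the 12 libraries. The submitters' processing notes list HISAT2 2.0.5 and, with no role, mm39 and hg38. The counter, annotation and strand setting are not given in the sources used here. At GENCODE M21 exon lengths, 94.7% of symbols above 0 came out as whole units (tolerance 0.02), among them 35 of the 36 genes (not Fancb). Of small values, 65.1% were even, so a unit may be 1 read of a pair.

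Values were analysed as log2(FPKM + 1), so folds of low genes are understated. A gene was tested if 3 or more libraries reached 1 FPKM. Il6 was left out, since its values without LPS equal those of another entry, and for 82 repeated entries the highest mean was kept. Limma 3.58.1 (R 4.3.3) fitted the 4 groups in 1 model with a variance trend, and p-values were adjusted by Benjamini-Hochberg over 10276 genes. The code was tested on simulated data. For the removal of GC content and length trends, splines were fitted per library over 10100 genes. Several genes overlap others on the opposite strand by 10.5% to 16.4% of exon bases (Fanca, Fancl, Fancf, Rad54l, Fanci and Fancc), and reads there cannot be assigned without a strand.

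The 36 genes, the lists (other recombination and Fanconi genes, end joining, mismatch, nucleotide and base excision repair, replication, mitosis, E2F and DREAM, p53 targets, cell type markers) and the tests were chosen with earlier results of these data known. Named genes are the members, the 4 largest calls in each direction among other pathway genes, and at most 2 examples a list. Psmc3ip, Eme1, Faap24, Faap100 and Mertk fall outside this rule and were chosen after their values were seen. Alternatives covered the pseudocount, filter, scaling, groups fitted, replicate block, GC content and length, variance trend and each library left out.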

Additional observations from a re-analysis of the deposited data

How the results depend on the processing

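The counts of members lower with LPS, with and without the antibody, stayed within 1.5 times of 26 and 28 under every alternative run, and 0 of their directions turned among the called genes. Leaving out 1 library gave 19 to 27 calls for LPS against untreated, 21 to 30 for LPS_Anti against Anti, 0 to 5 for LPS_Anti against LPS, and 0 to 0 for Anti against untreated and for the interaction. Of all 10276 genes those fits called 2806 to 3525 lower for LPS against untreated and 2601 to 3599 lower for LPS_Anti against Anti. For LPS_Anti against LPS they called 257 to 1971 higher and 325 to 2006 lower. They called 0 to 61 higher and 1 to 70 lower for Anti against untreated, and 28 to 65 and 47 to 96 for the interaction. For LPS_Anti against LPS the main count of 1 became 3 with a pseudocount of 0.1, 3 under median-of-ratios scaling, 0 without a filter, 0 under TPM scaling, 0 with the 2 groups fitted alone, and 7 (6 higher, 1 lower) with the GC content and length trend removed. Over all genes these settings called, in the same order, 720, 788, 619, 386, 393 and 1178 higher. They called 830, 969, 641, 790, 546 and 1256 lower. They tested 10276 genes, but 18142 without a filter and 10100 with the trend removed. Anti against untreated went from 0 to 1 with that trend removed, where the share of all genes called went from 0.341% to 3.9%. Rbbp8 reversed in LPS_Anti against LPS, to 0.28 with the trend removed and 0.28 with the replicate block added. The cause of these shifts was not tested. The labels give no pairing beyond the replicate number, and deviations from the group means were shared unevenly by same-numbered libraries. The correlations were 0.45 to 0.78 for replicate 1 and −0.32 to 0.43 for replicate 2. For replicate 3 they were 0.54 to 0.81 among UT, LPS and LPS_Anti, and −0.07 to 0.03 with Anti. With a replicate block the counts were 29, 0, 5, 30 and 0 for LPS against untreated, Anti against untreated, LPS_Anti against LPS, LPS_Anti against Anti and the interaction, and with the block and the trend removed 31, 1, 9, 32 and 1. For LPS_Anti against LPS, 3 of the 5 were higher and 2 lower (Atm and Atr), and 7 of the 9 were higher and 2 lower (Atm and Nbn). Of the 32, 31 were lower and Rad52 was higher, and the 1 interaction call was Exo1, higher. Over all 10276 genes the block called, in the same order of comparisons, 1997, 535, 1888, 2020 and 71 higher. It called 4134, 629, 1757, 4002 and 141 lower. With the trend removed as well, the block called 2287, 397, 1785, 2298 and 197 of 10100 genes higher. It then called 4577, 569, 1706, 4455 and 337 lower. A filter at 2 FPKM left out Fancc and Fancm. The smallest value, 35 units, belongs to Rmi2, and no statement is made on its change.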

Other observations

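Regulators of the cell cycle and targets of p53 moved apart with LPS. Of 18 tested E2F and DREAM regulators, the factors that time the transcription of S phase and mitotic genes, 15 were lower and 0 higher, with a median difference of −0.65. Foxm1, the mitotic transcription factor, went from 18.4 ± 0.109 to 4.13 ± 0.347 FPKM (SD, n = 3), and E2f8, a repressing E2F, from 11.1 ± 0.804 to 3.04 ± 0.541 FPKM. Of 19 tested p53 targets, 15 were higher and 1 was lower, with a median of 1.19. Over all genes tested, 33.1% were lower with LPS and 16.6% higher. Cdkn1a, the CDK inhibitor p21, went from 44.0 ± 4.71 to 280.0 ± 55.4 FPKM, and Plk2, a kinase gene induced by p53 and by other stimuli, from 0.839 ± 0.0551 to 46.6 ± 5.91 FPKM. When the antibody was added to LPS, 9 p53 targets were lower and 2 higher, where 8.14% of all genes were lower and 7.34% higher. Plk2 then stood at 18.9 ± 2.44 FPKM. The LPS difference of Plk2 was smaller with the antibody, with an interaction of −1.6 (log2, limma adjusted p 0.000277). Plk2 was the 1 interaction call among the 19 p53 targets, where 1.28% of all genes were called. The interaction of Cdkn1a was −0.52 (limma adjusted p 0.393). An unadjusted interaction p under 0.05 by limma was reached by 9 of the 19, against 8.6% of all genes.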
